A study of Mus musculus with 4 samples.

Results

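Genes of fatty acid uptake and oxidation were followed through the 5′ ends of transcripts in gastrocnemius muscle of AMPKα2 knockout (KO) and wild-type (WT) mice. The 10 members were chosen by symbol: Lpl, Cd36 and Fabp3 for uptake, Cpt1b and Cpt2 for the carnitine shuttle, Acadm, Acadl and Acadvl for the first step of β-oxidation, and Hadha and Hadhb for the steps that follow. Of the 10 genes, 7 had at least 1 start site in the table, and these were 7 of the 9838 genes found there. They held 40 of the 42207 sites and 3448 reads. Fabp3, Cpt1b and Acadvl had no site under their own symbol and were counted as not detected.

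Whole transcriptome start site sequencing (WTSS-seq) reads RNA from its 5′ end, so that each read gives the beginning of a whole or broken transcript. The samples were total RNA from male adult C57BL/6 mice, with 2 AMPKα2 KO animals and 2 WT controls, and 1 library per animal. Prkaa2 encodes AMPKα2, a kinase subunit of AMPK, the energy sensor that responds to AMP. The knockout allele lacks DNA for a stretch of the catalytic domain in the whole animal, so the other cell types of the muscle carry it too. The question for these genes was whether their start sites differed in level or in use between KO and WT muscle.

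Muscle takes up fatty acids that lipoprotein lipase releases from circulating triglycerides, and CD36 and fatty acid binding proteins carry them into and through the fibre. Once bound to coenzyme A, they cross into the mitochondrion as carnitine esters, which CPT1 makes and CPT2 takes apart again. The acyl-CoA dehydrogenases and the trifunctional protein of HADHA and HADHB then shorten the chain to acetyl-CoA. AMPK is known to favour this route by inhibiting acetyl-CoA carboxylase, whose product malonyl-CoA blocks CPT1.

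No member, no start site of a member and no shift in the use of start sites passed its test between KO and WT. At the gene level, 4 members had enough reads for an adjusted p, and DESeq2 called 0 of them at an adjusted p under 0.1, against 2.67% of all genes tested. Without adjustment, 0 members had p under 0.05, in DESeq2 or in the quasi-likelihood test of edgeR, which tested 6 members and called 0. Of all genes in the table, 6.88% had a DESeq2 p under 0.05. Of all genes that edgeR tested, 10.5% had one by edgeR and 0.883% were called. The intervals were wide. The narrowest, that of Lpl, ran from 0.430-fold to 1.44-fold in KO over WT, and that of Cd36 from 0.157-fold to 1.18-fold. Both KO libraries were lower than both WT libraries in 4 of the 7 members in the table (Cd36, Acadl, Acadm and Hadhb). This was so in 3 of the 4 members with an adjusted p, against 19.4% of all genes tested. The members overlap in function, were chosen with earlier results of these data known and come from the same 4 libraries, so they are not separate observations of the knockout.

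**Figure D1:**
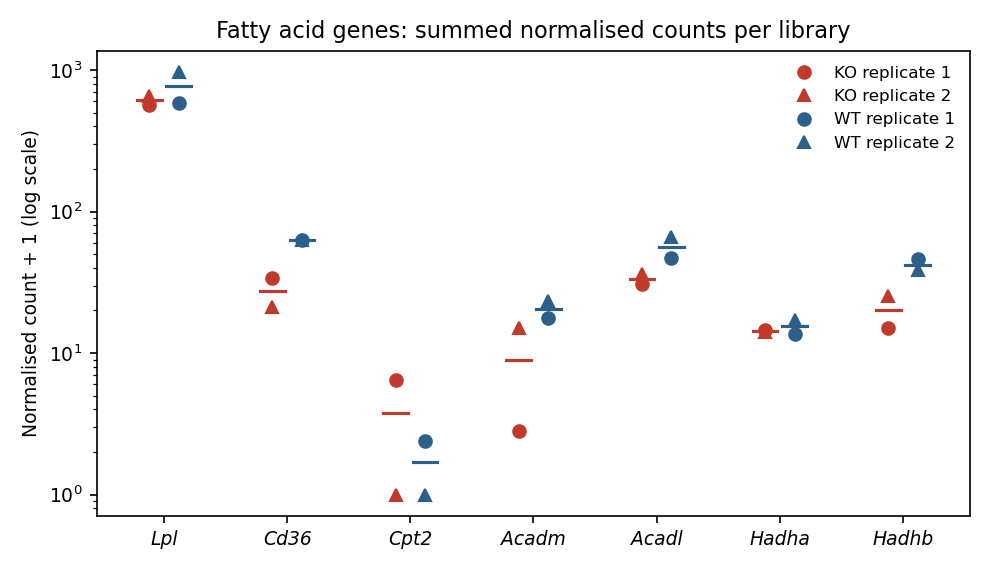
Normalised count plus 1 on a log axis for the 7 members with a site in the table, with 1 point per library (KO in red, WT in blue, circles for replicate 1 and triangles for replicate 2) and a short line at each group mean. The KO points lie below the WT points in Cd36, Acadm, Acadl and Hadhb, and the groups overlap in Lpl, Cpt2 and Hadha.

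The libraries held 1300069 to 2900279 reads, both KO libraries being deeper than both WT libraries, and 19.4% to 24.1% of the reads were mitochondrial. A count of 3 reads, taken as the floor of detection, stood for 1.03 to 2.31 ppm per library. The spread between replicates was well above counting noise, with a chi-square per degree of freedom of 13.5 in KO and 11.6 in WT. Prkaa2, the targeted gene, did not separate the groups, with 149 and 183 normalised counts in KO against 153 and 186 in WT (DESeq2 adjusted p 0.994), and gave no check of the labels. All 10 muscle markers had sites, with a summed 64184 and 74838 normalised counts in KO against 58807 and 81967 in WT.

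Reads of the members fell mostly on Lpl. Lpl had 2872 of the 3448 reads (83.3%) and 16 of the 40 sites, and the other 6 members shared 576 reads. Counts were not corrected for transcript length, so they are not levels that can be ranked between genes. No site assigned to a member by symbol lay within 100 bp of an annotated gene start. Over all genes placed on the annotation, 2.79% of sites and 5.31% of reads lay that close. Of the members' sites, 17 of 40 lay in the last 10% of the gene, against 22.6% of the sites of all genes, and they held 73.5% of the members' reads against 35.8%. Without Lpl the members' share of reads there was 36.1%. By class code, 19 of the 40 sites were contained in an annotated exon, 16 lay in introns, 4 spanned an exon and an intron, and 1 had another exonic overlap.

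The promoter windows at hand for the members hold no listed site, and a few are printed here to show where no site was listed. RefSeq windows of 300 bases, from 250 bases before to 50 after an annotated start, were at hand for 8 of the 10 members in GRCm38.p6, and not for Lpl and Cpt1b. A site of 47 reads with no gene assigned lay just before the RefSeq start of Lpl and is given below. None of the 8 windows held a listed site, against 2.97% of all windows. The windows of Fabp3 and Acadvl could hold none under the members' names, and for the 6 members with a site in the table the count of 0 stands against 10.7% of the windows of such genes. Hadha and Hadhb are shown because they face away from each other, with 272 bases between the gene spans, so that 228 bases of their windows are the same DNA. Acadl and Cd36 are shown as members whose KO libraries both lay below WT, and the window of Cd36 is at a start that RefSeq places inside the gene span. Capitals mark matches, on either strand, to the GC box GGGCGG and to the nuclear receptor half-site AGGTCA.
Hadha and Hadhb shared stretch, chr5:30155003-30155230, plus strand: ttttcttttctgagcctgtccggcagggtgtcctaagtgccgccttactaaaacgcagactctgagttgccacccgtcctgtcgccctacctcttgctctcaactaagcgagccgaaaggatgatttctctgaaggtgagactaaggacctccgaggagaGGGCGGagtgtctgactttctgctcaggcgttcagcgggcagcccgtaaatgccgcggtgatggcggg
Acadl, chr1:66863260-66863559, minus strand: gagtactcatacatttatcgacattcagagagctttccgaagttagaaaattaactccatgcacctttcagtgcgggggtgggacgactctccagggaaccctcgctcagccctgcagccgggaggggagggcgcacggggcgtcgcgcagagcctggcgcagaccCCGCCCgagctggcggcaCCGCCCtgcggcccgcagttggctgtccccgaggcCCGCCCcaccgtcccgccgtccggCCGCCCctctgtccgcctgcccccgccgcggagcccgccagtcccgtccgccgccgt
Cd36, chr5:17835847-17836146, minus strand: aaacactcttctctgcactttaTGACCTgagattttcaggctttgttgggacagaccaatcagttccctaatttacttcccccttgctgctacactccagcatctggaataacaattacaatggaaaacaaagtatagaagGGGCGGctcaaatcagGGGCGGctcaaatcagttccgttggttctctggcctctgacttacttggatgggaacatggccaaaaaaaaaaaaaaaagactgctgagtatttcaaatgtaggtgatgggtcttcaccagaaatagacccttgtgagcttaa

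The GC box occurred in 5 of the 8 windows (Acadl, Cpt2, Cd36, Hadha and Hadhb), against 35.7% of all windows of this length. The box of Hadha lies in the stretch shared with Hadhb, so 1 box counts in both windows. Acadl held 4 copies, 84, 66, 31 and 7 bases before the start. The half-site occurred in 3 windows (Acadm, Cd36 and Acadvl), against 16.3% of all windows. The TATA box TATAAA was in 0 of the 8 windows, against 13.6% of all, as was the extended half-site TNAAGGTCA, found in 1.28% of all windows. A direct repeat of the half-site spaced by 1 base, which contains the half-site, and the NRF1 palindrome were in 0 of the 8 windows, against 0.04% and 0.971% of all. These matches describe letters in the windows, and no reads at these starts were available to set beside them.

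Lpl encodes the lipase that is anchored on the capillary wall of muscle and fat. The gene lies at 68880555 to 68906932 of chromosome 8, plus strand. Its sites held 923 and 754 reads in KO against 416 and 779 reads in WT, in the order of the replicates. After normalisation these became 564 and 659 in KO against 583 and 970 in WT. The KO libraries lay within or just under the WT range, and the groups overlapped. The log2 fold change of KO over WT was -0.35 (SE 0.44, 95% interval -1.22 to 0.52, DESeq2 adjusted p 0.947). Its sign rested on WT replicate 2, without which the value was 0.04.

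A pair of sites near the 3′ end of Lpl held 70.9% to 79.3% of its reads in each library. Both were contained in annotated exon sequence. The upstream one, at 68905740 to 68905926, lay 1081 bases before the end of the gene and was the largest site of any member. It had 621 and 244 reads in KO against 138 and 281 in WT. Its normalised counts were 309 ± 139 in KO and 256 ± 97.1 in WT (SD, n = 2), so the groups overlapped (log2 fold change 0.27, SE 0.65, DESeq2 adjusted p 1.00). The downstream one, at 68906320 to 68906558 and 491 bases before the end, was singled out after its values were seen. It had 33 and 330 reads in KO against 161 and 337 in WT. The log2 fold change there was -0.99 (SE 0.91), at a DESeq2 adjusted p of 1.00.

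KO replicate 1 stood apart from the other 3 libraries in the balance of this pair. The upstream site took 67.3% of the Lpl reads there, against 32.4% in the other KO library and 33.2% and 36.1% in WT. The downstream site took 3.58% of them there, against 43.8% in the other KO library and 38.7% and 43.3% in WT. The ratio of upstream to downstream reads was thus 18.8 in KO replicate 1 and between 0.739 and 0.857 in the others. At the downstream site the KO replicates differed 13.2-fold in normalised counts. Of the 1005 sites with at least 500 reads, 1.69% had KO replicates at least as far apart, and the median was 1.47-fold. The difference lay between 2 libraries of 1 genotype. Without KO replicate 1 the log2 fold change of the downstream site was -0.05, and without KO replicate 2 it was -3.83 (DESeq2 adjusted p 0.191).

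**Figure D2:**
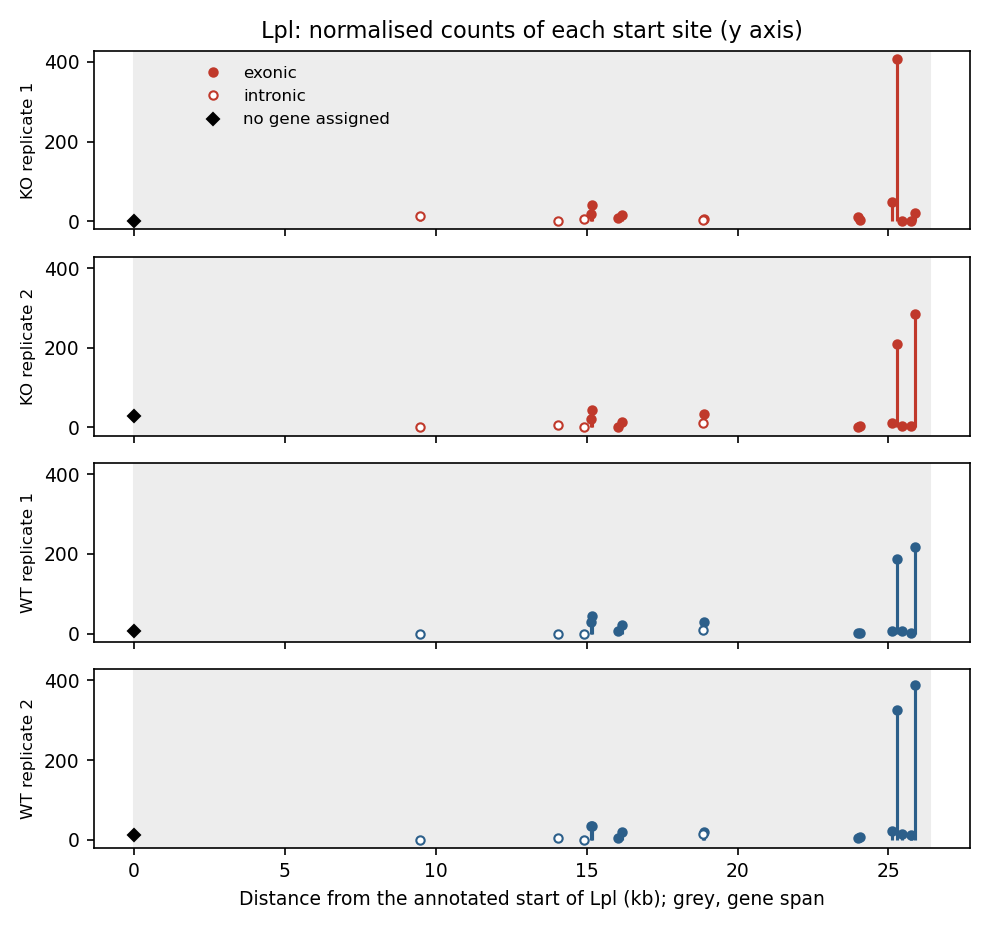
Normalised counts (y axis, linear, shared scale) of the 16 Lpl sites by distance from the annotated start in kb, with 1 panel per library, filled circles for exonic and open circles for intronic sites, and a diamond for a site with no assigned gene. The downstream site of the pair at the 3′ end is at 21.7 normalised counts in KO replicate 1 and between 218 and 389 in the other 3 libraries.

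Whether a gene spread its reads differently over its sites could be tested for Lpl and Acadl, which had at least 2 sites with enough reads. Of these 2 genes 0 were called between KO and WT, with an adjusted p of 1.00 for Lpl over 8 sites and 1.00 for Acadl over 3 sites (diffSpliceDGE of edgeR, Simes). Over all genes tested, 1.77% were called, or 3.31% with the F test per gene of the same fit. Without KO replicate 2, the adjusted p of Lpl was 0.636.

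The other sites of Lpl held few reads. A group of exonic sites in the middle of the gene was led by 68895715 to 68895797, with 42.0 and 44.0 normalised counts in KO against 44.8 and 34.7 in WT. Intronic sites at 68890014 to 68890047 and at 68895454 to 68895475 were read in KO alone, with 21 and 1 reads at the first and 8 and 2 at the second. Neither reached 10 reads in both KO libraries. A site was listed only with at least 10 reads over the 4 libraries, so both were listed through their KO reads alone. The KO libraries were also the deeper ones. A site with no gene assigned by the authors, at 68880531 to 68880551 on the plus strand, had its position 5 bases before the RefSeq start of Lpl. It held 1 and 32 reads in KO against 4 and 10 in WT. Of the 1659 sites without a gene on primary chromosomes, 4.52% lay within 100 bp of an annotated start on the same strand. With this site added, the log2 fold change of Lpl was -0.33, in an assignment by position that was made after the data were seen.

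Cd36 encodes the fatty acid translocase of the plasma membrane, which is also found on macrophages, fat cells and capillary endothelium. It lies at 17781690 to 17888959 of chromosome 5, minus strand. Its 9 sites held 54 and 23 reads in KO against 44 and 50 in WT, or 33.0, 20.1, 61.7 and 62.3 normalised counts. Both KO libraries were below both WT libraries, which differed little from each other. The log2 fold change was -1.22 (SE 0.74, 95% interval -2.67 to 0.23), with an unadjusted p of 0.10 and an adjusted p of 0.675 in DESeq2. The adjusted p in edgeR was 0.490. In bulk tissue, fewer cells of a type and less RNA per cell cannot be told apart.

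Intronic reads carried most of the gap in Cd36. Its exonic sites, including those that span an exon and an intron, had 20.2 and 14.9 normalised counts in KO against 30.9 and 19.9 in WT, and the groups overlapped. Its intronic sites had 12.8 and 5.24 in KO against 30.9 and 42.3 in WT. The ratio of the group means at exonic sites was -0.54 on the log2 scale with the scaling kept. A DESeq2 fit on exonic sites of all genes gave -0.30, but that fit also set new size factors, which moved Lpl, with 2.75% of its reads in introns, from -0.35 to -0.10. The largest site, at 17785873 to 17785912 and spanning an exon and an intron, had 16 and 8 reads in KO against 17 and 10 in WT. An intronic site at 17823687 to 17823713, named after its values were seen, had 5 and 6 reads in WT and was at 0 in both KO libraries. It was listed through its WT reads alone. It had the smallest p of the members' sites in DESeq2, 0.0550 before adjustment, and too few reads for an adjusted p.

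Markers of other cells that express Cd36 were summed beside it. Of 6 macrophage markers 5 had sites, with Cd68 absent, and they summed to 188 and 189 normalised counts in KO against 414 and 262 in WT, with a median log2 fold change of -0.78 over the 4 tested. Both KO libraries lay below both WT libraries in 2 of the 4 tested, against 19.4% of all genes tested. Endothelial markers (7 of 8 with sites, Egfl7 absent) summed to 289 and 252 in KO against 236 and 237 in WT, most of it Flt1. Without Flt1 the sums were 53.1 and 76.9 in KO against 89.7 and 90.9 in WT, and the median log2 fold change over the 3 tested, Flt1 included, was -0.22. Adipocyte markers (7 of 10 with sites, Cidec, Retn and Pck1 absent) summed to 5937 and 3061 in KO against 5958 and 3390 in WT, nearly all of it Fabp4. Their median log2 fold change over the 6 tested was -0.34, with 5 lower and 1 higher in KO. All genes tested split into 2320 lower and 2368 higher. Of these 3 lists DESeq2 called 0 genes, against 2.67% of all genes tested, and edgeR called 0, against 0.883%. An unadjusted p under 0.05 was seen only in macrophage genes. These were 1 of 5 by DESeq2, against 6.88% of all genes in the table. By edgeR they were 2 of 5, against 10.5% of all genes it tested. The part of these cell types in the Cd36 values was not tested.

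Of the carnitine shuttle, the members Cpt1b and Cpt2 had few reads or none. Cpt2, the inner membrane carnitine palmitoyltransferase, had 1 site at 107904469 to 107904499 of chromosome 4, contained in an exon 489 bases before the end of the gene. It held 9 and 0 reads in KO against 1 and 0 in WT, so that 3 of 4 libraries were under the floor and no fold is given. Cpt1b encodes the muscle form of the outer membrane enzyme, the regulated step of entry. It had no site under its own symbol. Its span on chromosome 15, 89416405 to 89425862 on the minus strand, lies inside that of Gm44502, annotated as a long noncoding RNA that reads through Chkb and Cpt1b, and 2 sites in the span were assigned to Gm44502. The one at 89416659 to 89416671, 258 bases before the end of Cpt1b, had 27 and 27 reads in KO against 8 and 4 in WT. The one at 89422371 to 89422399 had 4 and 7 in KO against 9 and 8 in WT. In normalised counts the first was higher in both KO libraries (17.7 and 23.3 against 10.9 and 4.62), and the second was lower in both (2.63 and 6.04 against 12.2 and 9.24). Summed, they gave 18.9 and 29.7 normalised counts in KO against 23.8 and 14.9 in WT, which overlapped (log2 fold change 0.33, SE 0.97, DESeq2 adjusted p 0.992). These reads cannot be told apart as Cpt1b or Gm44502, and the assignment by position was made after the data were seen.

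Of the acyl-CoA dehydrogenases, Acadl acts on long chains and Acadm on medium chains, and Acadvl, for very long chains, was not detected. Acadl (chromosome 1, 66830839 to 66863309, minus strand) had 4 sites, with 29.9 and 35.0 normalised counts in KO against 46.3 and 64.8 in WT. Both KO libraries were lower, with a log2 fold change of -0.78 (SE 0.73, 95% interval -2.22 to 0.66, DESeq2 adjusted p 0.903). Its largest site, at 66857495 to 66857507 in an exon, had 11.2 and 6.04 normalised counts in KO against 13.6 and 21.9 in WT. The next exonic site towards the gene start, at 66857539 to 66857552, was higher in both KO libraries, with 13.1 and 14.7 in KO against 8.14 and 9.24 in WT. The log2 fold changes of this pair were -1.04 (95% interval -3.65 to 1.56) and 0.68 (95% interval -2.06 to 3.41), so neither was resolved from 0.

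Acadm (chromosome 3, 153922353 to 153944643, minus strand) had 1 site, at 153936360 to 153936445, spanning an exon and an intron. It held 3 and 16 reads in KO against 12 and 18 in WT, or 1.83, 14.0, 16.8 and 22.4 normalised counts. Both KO libraries were lower, but KO replicate 1 made most of the gap. Its log2 fold change came to -1.34 (SE 1.29), and its mean was too low for an adjusted p. It was -0.48 without KO replicate 1 and -3.41 without KO replicate 2.

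Hadha and Hadhb encode the α and β subunits of the mitochondrial trifunctional protein, and their divergent promoter stretch is printed above. Hadha, at 30119423 to 30154980 of chromosome 5, had 3 sites, all intronic, with 13.4 and 13.1 normalised counts in KO against 12.6 and 16.2 in WT. The groups overlapped, with a log2 fold change of -0.12 (SE 1.15) and a mean too low for an adjusted p. Its largest site, at 30141753 to 30141765, had 16 and 9 reads in KO against 0 and 7 in WT. Hadhb, at 30155253 to 30184593, had 6 sites, with 14.0 and 24.5 normalised counts in KO against 44.9 and 37.4 in WT. Both KO libraries were lower, with a log2 fold change of -1.10 (SE 0.86, 95% interval -2.78 to 0.58, DESeq2 adjusted p 0.841).

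As in Cd36, most of the gap of Hadhb lay in introns. Its intronic sites had 4.89 and 17.5 normalised counts in KO against 36.5 and 22.4 in WT, and its exonic sites had 9.16 and 6.99 in KO against 8.41 and 14.9 in WT. At exonic sites the log2 ratio of the group means was -0.53 with the scaling kept, and -0.23 in the rescaled fit on exonic sites. The largest sites of Hadhb, with 27 reads each, were intronic and 2 bases wide. The one at 30160973 to 30160974 had 3 and 9 reads in KO against 12 and 3 in WT, and the one at 30170391 to 30170392 had 5 and 7 in KO against 13 and 2 in WT. In both, WT replicate 1 was the highest library. Over all genes, the share of introns was taken among reads assigned to a gene, with mitochondrial and ribosomal RNA reads left out. It was 38.7% and 30.3% in KO against 35.3% and 27.7% in WT, so the share did not separate the groups. In Acadl the intronic site had 4.89 and 8.74 normalised counts in KO against 12.6 and 21.2 in WT. The exonic sites of Acadl had 25.0 and 26.2 in KO against 33.7 and 43.6 in WT. The intronic sites of the other 2 members that had any overlapped between the groups, with 20.8 and 19.2 in KO against 9.82 and 19.9 in WT for Lpl and the values above for Hadha.

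**Figure D3:**
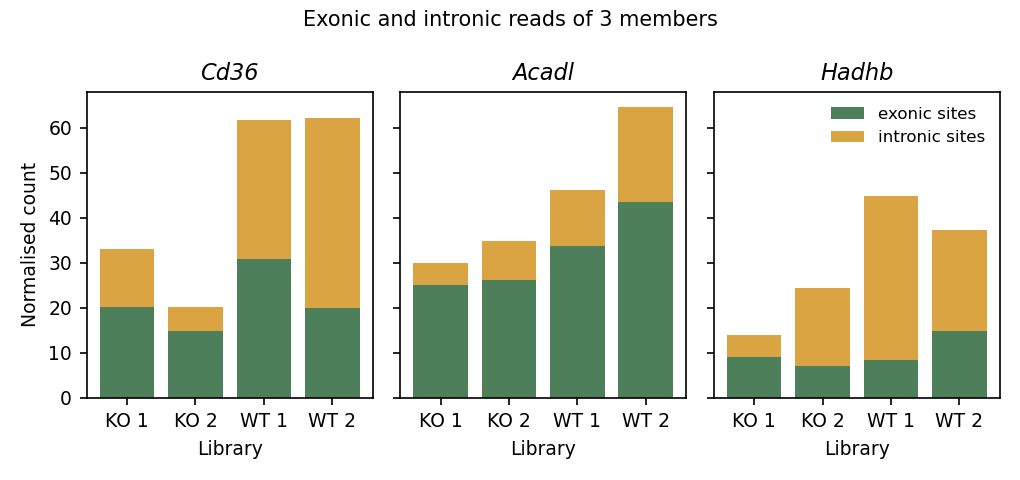
Stacked bars of normalised counts at exonic (green) and intronic (yellow) sites of Cd36, Acadl and Hadhb in each of the 4 libraries, on a linear axis that starts at 0. The exonic bars of Cd36 (14.9 to 30.9) and Hadhb (6.99 to 14.9) overlap between KO and WT, and the intronic bars of these 3 genes, picked as genes with lower KO totals, are lower in both KO libraries than in both WT libraries.

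At the level of single sites, 13 of the members' 40 sites had an adjusted p and 0 were called by DESeq2, against 3.21% of all sites tested. Without adjustment, 0 of the 40 sites had a DESeq2 p under 0.05. Of the 13 sites that edgeR tested it called 0, and 0 had an unadjusted p under 0.05. Over the whole table edgeR called 80 sites. Shares over all sites were not taken for these unadjusted and edgeR counts. The counts of 0 thus stand without a background and are not read as a result about the members. No site had 10 or more reads in both libraries of 1 group and 3 or fewer in both libraries of the other. The median log2 fold change of the 4 members with an adjusted p was -0.94, against 0.01 over all genes tested. The median of the 6 members with a fold change was also -0.94. At exonic sites the median over 5 members, without Hadha, was -0.54 with the scaling kept and -0.30 in the rescaled fit.

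The rest of the pathway was taken from a list of 43 further genes of fatty acid release, uptake, activation, transport and oxidation. Of these, 32 were in the table and 22 had an adjusted p, and DESeq2 called 0 as higher and 0 as lower in KO, against 2.67% of all genes tested. Without adjustment, 2 of the 32 had p under 0.05 with DESeq2, against 6.88% of all genes in the table. By edgeR 0 of 28 were called, against 0.883% of all genes it tested, and 5 had an unadjusted p under 0.05, against 10.5%. Their median log2 fold change was -0.06, with 13 lower and 9 higher. Beside the undetected members, 11 listed genes had no site, among them the short-chain dehydrogenase Acads and the adipose triglyceride lipase Pnpla2.

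**Figure D4:**
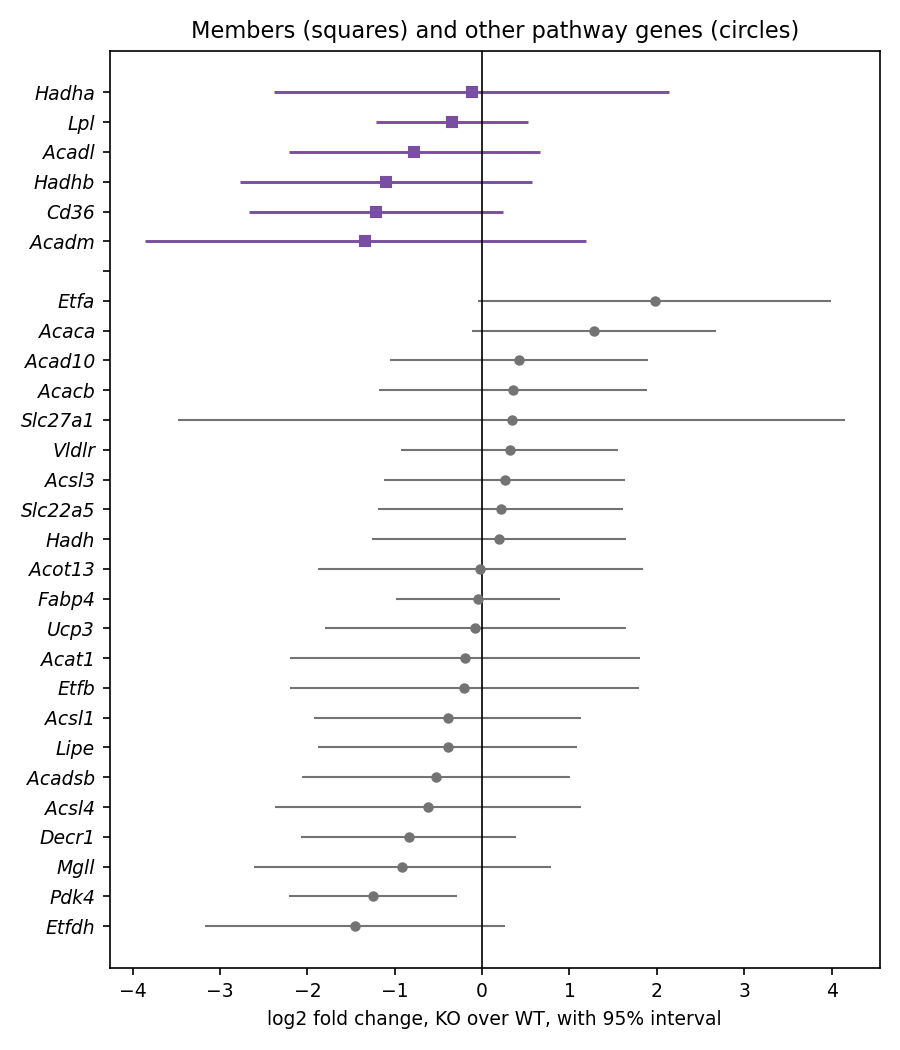
Log2 fold change of KO over WT with its 95% interval for the 6 members with a fold change (purple squares) and the 22 further pathway genes with an adjusted p (grey circles). All 6 members have intervals that include 0, and of the pathway genes Pdk4 has an interval that does not.

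Pdk4 encodes the kinase that shuts down pyruvate dehydrogenase when fatty acids are burned. It had 509 and 401 reads in KO against 341 and 878 in WT, or 311, 350, 478 and 1093 normalised counts. Both KO libraries were lower, and WT replicate 2 was far above the other 3 libraries, with a log2 fold change of -1.25 (SE 0.49, unadjusted p 0.0113 and adjusted p 0.237 with DESeq2). Fabp4, the fatty acid binding protein of fat cells and capillaries, had 5792 and 2861 normalised counts in KO against 5720 and 3197 in WT, and its spread lay within each group (log2 fold change -0.04, SE 0.48). Slc27a1, a fatty acid transporter, had 4.28 and 249.9 in KO against 105 and 95.9 in WT, so the KO replicates lay on either side of WT (log2 fold change 0.34, SE 1.95). Without KO replicate 2 its log2 fold change was -4.55 with a DESeq2 adjusted p of 0.00368, a fit in which the lone KO library was assumed to vary as the WT libraries do. Acsl3, an acyl-CoA synthetase, had 104 and 68.2 in KO against 111 and 33.6 in WT, and Vldlr, a lipoprotein receptor, 65.4 and 112 in KO against 56.1 and 85.9 in WT. Both overlapped between the groups.

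Slc25a20 encodes the carnitine-acylcarnitine translocase, which stands between CPT1 and CPT2. It had 1 site, at 108684428 to 108684430 of chromosome 9, 3 bases wide and contained in an exon, with 20 and 56 reads in KO against 1 and 0 in WT. Its mean in KO was at least 7.70-fold higher than the floor of 3 reads per WT library. This bound was 3.08-fold with KO replicate 1 alone and 12.3-fold with KO replicate 2 alone. Its mean over the libraries was too low for an adjusted p in DESeq2, where the unadjusted p was 0.00290, and the edgeR adjusted p was 0.141. It passed with exonic sites alone, at a DESeq2 adjusted p of 0.0980. Its only site is exonic, so its counts were the same in that fit, and the size factors and the genes tested differed. The remaining genes with an unadjusted edgeR p under 0.05, named after their values were seen, were Etfa, Etfdh and Acaca. Etfa, a subunit of the electron transfer flavoprotein, had 38.5 and 41.9 normalised counts in KO against 2.80 and 17.4 in WT. Etfdh, which passes its electrons to ubiquinone, had 17.1 and 12.2 in KO against 43.5 and 37.4 in WT. Acaca, a malonyl-CoA-forming carboxylase, had 66.6 and 86.5 in KO against 40.7 and 22.4 in WT. The edgeR adjusted p of these 3 genes lay between 0.417 and 0.466.

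Fibre type and mitochondrial content were set beside these values, since oxidative fibres are rich in mitochondria and in these enzymes. Slow fibre markers (6 of 7 with sites, Myl2 absent) summed to 860 and 1146 normalised counts in KO against 337 and 884 in WT, with a median log2 fold change of 0.73 over 5 tested. Both KO libraries lay above both WT libraries in 3 of the 5 tested and below them in 0. Over all genes tested, 1031 of 4688 had both KO libraries above. Fast fibre markers (9 of 9) summed to 35408 and 46522 in KO against 33146 and 54633 in WT. Their median log2 fold change was -0.08, with 9 lower and 0 higher in KO, and the libraries of the groups overlapped in all 9. Genes of the mitochondrial matrix and respiratory chain (9 of 10, Uqcrc2 absent) summed to 897 and 1198 in KO against 1077 and 1561 in WT, with a median of -0.23. Of these lists DESeq2 and edgeR each called 0 genes, against 2.67% and 0.883% of all genes tested. Unadjusted p was under 0.05 in 0 of them, against 6.88% (DESeq2, all in the table) and 10.5% (edgeR, all tested). The part of these lists in the members' values was not tested.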

How the data were processed

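The authors deposited a table of raw counts, in which a row is a cluster of read starts and each library has a column. Reads were mapped to the mouse genome (GRCm38.p5 per the labels) and sites were assigned to genes by Cuffcompare class code. Mapping was described for the 3′-end libraries, and was not given for the 5′ ends in the sources used here. No molecular identifiers were described, so counts include PCR copies and the floor covers counting error only. Sites in the table had at least 10 reads over the 4 libraries.

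Counts were summed per symbol. Genes and sites were compared by DESeq2 (version 1.42.0, Wald test, in R version 4.3.3) over the whole table, using median-of-ratios size factors and Benjamini-Hochberg adjusted p under 0.1, as in the study's methods, and independent filtering left low means without an adjusted p. The alternatives were edgeR (version 4.0.16) with TMM factors, TMM in DESeq2, no filtering, a threshold of 0.05, exonic sense sites, primary chromosomes, a replicate block and each library left out. Assignment by position and exonic ratios with the scaling kept were added after the data were seen. Intervals are 95%, from the SE. Scripts were tested on simulated data. All 10 members were named, with each member's largest site, any site within 100 bp of its start, any called site and any site limited to 1 group. Of the pathway list, called genes and the 5 with the largest totals were named. Slc25a20, Etfa, Etfdh and Acaca were added after their values were seen. The members and lists were chosen with earlier results of these data known.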

Additional observations from a re-analysis of the deposited data

How the results depend on the processing

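Members, their sites and their site use had 0 calls under every alternative run. With exonic sense sites alone, 1 gene of the pathway list was called (Slc25a20, whose own counts were the same in that fit). With 1 library left out, 0 to 1 was called, namely Slc27a1 without KO replicate 2 and Pdk4 without WT replicate 1 (DESeq2 adjusted p 0.0913). In these fits 1 group has a lone library, which was assumed to vary like the other group. Leaving out 1 library also moved log2 fold changes across 0, from -0.67 to 0.0378 for Lpl, from -0.29 to 0.0438 for Hadha (above 0 without WT replicate 2 in both) and from -0.24 to 0.67 for the upstream Lpl site (below 0 without KO replicate 1, and -0.07 without WT replicate 1). The cause was not tested. The sign of Cd36, Acadl, Acadm and Hadhb held with edgeR, TMM factors, exonic sites, the block and each library left out. All of these fits drew on the same 4 libraries. In these 4 genes both KO libraries lay below both WT libraries, so leaving 1 library out could hardly turn the sign.

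The number of genes called over the whole table was 125 with DESeq2, 54 with edgeR, 59 with exonic sense sites and 56 to 77 with 1 library left out. The number of genes called for site use was 38 with Simes and 71 with the F test. The number of sites called was 357 with DESeq2, 80 with edgeR, 175 without filtering, 234 at the threshold of 0.05 and 44 to 250 with 1 library left out. The groups share replicate numbers, but deviations of same-numbered libraries correlated at only 0.0663 over 6008 genes, which did not pair them. With the replicate block 95 genes and 195 sites were called, and it changed no call of a member, where 0 genes were called.

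Depth and the spread between animals both limited the comparisons. The members other than Lpl had 576 reads in all and wider intervals than Lpl.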
